A study of Mus musculus with 36 samples.

Results

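The integrated stress response and the unfolded protein response were followed through 10 of their genes in the anterior cingulate cortex of the mouse, a region of the medial prefrontal cortex. The genes were Atf4, Ddit3, Trib3, Asns, Chac1, Sesn2, Psat1, Phgdh, Xbp1 and Herpud1. They were taken by symbol from a table of 52636 genes, of which 52403 had a symbol, and all 10 were found. The 36 female mice, aged 8 to 11 weeks, gave 1 library each and fell into 4 groups. The labels give the strain C57BL/6NTac-Brd1 for all of them, WT included, and the methods name the mutant line C57BL/6NTac-Brd1tm1.2Arte/AborgMmucd. Wild-type (WT) mice received vehicle (saline, n = 8) or imipramine (IMN, a tricyclic antidepressant, n = 10), and Brd1+/- mice, which carry a heterozygous targeted deletion in the chromatin gene Brd1, received vehicle (n = 9) or IMN (n = 9). IMN was given at 10 mg/kg under the skin on 2 consecutive days, and every mouse, also in the vehicle groups, went through tail suspension, open field and forced swim tests before the brain was taken.

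The integrated stress response begins with phosphorylation of the translation factor eIF2, which slows protein synthesis in general while the mRNA of the transcription factor Atf4 is translated more. Atf4 protein then raises genes of amino acid synthesis and uptake, together with Ddit3, Trib3, Chac1 and Sesn2. The unfolded protein response shares the eIF2 branch and adds 2 sensors of the endoplasmic reticulum (ER), Ire1, which splices the mRNA of Xbp1, and Atf6, which is cleaved into a transcription factor itself. Both raise chaperones and degradation factors such as Herpud1. Gene-level mRNA shows neither the splicing of Xbp1 nor the translation of Atf4, so the values below are levels of total mRNA.

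The elements through which these factors act can be read in the promoters, and the stretches below are shown because they hold such an element before the RefSeq start of a gene whose values are described later. The start given for Asns in the gene annotation lies further upstream, so that its element is inside the annotated gene. The windows ran from 250 bases before to 50 bases after the start of transcription in RefSeq (build GRCm38.p6), and capitals mark the element. The first 3 stretches belong to Asns, Chac1 and Herpud1, and the last 2 to Hspa5 and Creld2, an ER chaperone and an ER-resident factor of the wider response.
Asns (chr6:7693210-7693309, minus strand): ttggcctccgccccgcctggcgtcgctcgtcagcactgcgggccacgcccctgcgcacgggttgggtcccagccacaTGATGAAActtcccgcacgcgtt
Chac1 (chr2:119351003-119351102, plus strand): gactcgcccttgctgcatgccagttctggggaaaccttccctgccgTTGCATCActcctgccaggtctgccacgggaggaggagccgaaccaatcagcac
Herpud1 (chr8:94386302-94386401, plus strand): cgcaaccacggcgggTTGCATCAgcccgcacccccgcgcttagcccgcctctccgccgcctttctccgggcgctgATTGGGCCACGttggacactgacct
Hspa5 (chr2:34771984-34772083, plus strand): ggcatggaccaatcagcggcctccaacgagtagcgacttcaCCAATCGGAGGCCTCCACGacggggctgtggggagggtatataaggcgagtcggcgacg
Creld2 (chr15:88819479-88819578, plus strand): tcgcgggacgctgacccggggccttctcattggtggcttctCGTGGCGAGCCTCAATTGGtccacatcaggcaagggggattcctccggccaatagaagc

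The element of Asns and the first element of Chac1 and Herpud1 is the C/EBP-ATF response element (CARE), searched as TGATGNAA on both strands, so that it reads in reverse in Chac1 and Herpud1. It was found in the windows of 4 of the 10 genes, namely Asns, Chac1, Herpud1 and Trib3, where it lay 14 to 21 bases after the start. Of all 32851 windows, 3.97% held it. Its narrower form TGATGCAA, whose matches are all matches of the wider form as well, was found in 2 of the 10 (Chac1 and Herpud1), in 8 of 22 windows of other Atf4 programme genes and in 0.895% of all windows. The second element of Herpud1 is the ER stress response element II, found in 1 of the 10 genes and in 0.0365% of all windows. The ER stress response element, shown in Hspa5 and Creld2, was found in none of the 10, in 9 of 31 windows of the ER sensor, chaperone and degradation genes described below, and in 0.119% of all windows. The unfolded protein response element, searched as TGACGTGG, was in none of the 10 genes and in 0.676% of all windows. These matches describe letters in a window and do not show that a factor was bound there.

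The deposited values were in TPM, a share of all transcripts in a library that is scaled by gene length and allows levels to be compared between genes as well as between mice. Each library summed to about the same total by construction, and the values keep no read depth. Between 24685 and 25517 genes were above 0 in a library. The deletion was visible in Brd1 itself, whose mean was 26.4 TPM with vehicle and 23.3 TPM with IMN in WT mice (SD 3.03 and 3.43, n = 8 and 10) and 16.8 TPM with either in Brd1+/- mice (SD 2.72 and 2.102, n = 9 and 9). Over both treatments, Brd1 was lower in Brd1+/- by a log2 fold change of -0.54 (SE 0.067, limma, Benjamini-Hochberg adjusted p = 2.83e-05), with 18 of 18 Brd1+/- values under the mean of the WT mice. All 6 neuron markers had a median of at least 1 TPM and summed to between 3679 and 7182 TPM, whereas 0 of 8 choroid plexus markers did. Replicate 6 of Brd1+/- vehicle stood apart, with 3922 TPM summed over the choroid plexus markers against at most 40.4 TPM elsewhere, and 1574 TPM over the 10 striatal markers against at most 423 TPM elsewhere. The oligodendrocyte markers summed to between 192 and 3570 TPM over the 36 libraries, in ranges that overlapped between all 4 groups. In whole tissue, fewer cells of a type and less RNA per cell cannot be told apart.

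Of the 3 transcription factors, Atf4 (chromosome 15, 80255184 to 80257541, plus strand, GRCm38), the central factor of the integrated stress response, had the highest mean of the 10 genes over the 36 libraries, at 113 ± 12.2 TPM (SD, n = 36). It ranged from 99.4 to 117 TPM around a median of 114 TPM in WT vehicle and from 91.2 to 160 TPM around 112 TPM in Brd1+/- vehicle. With IMN it ranged from 90.5 to 127 TPM around 113 TPM in WT and from 100.2 to 131 TPM around 111 TPM in Brd1+/-. The 4 ranges overlapped, and the 4 medians lay closer together than the smallest SD within a group, which was 5.61 TPM in WT vehicle.

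Ddit3 (chromosome 10, 127290774 to 127296288, plus strand) encodes CHOP, a partner of C/EBP factors that Atf4 raises. It ranged from 34.6 to 44.8 TPM around a median of 39.8 TPM in WT vehicle and from 29.3 to 53.5 TPM around 35.1 TPM in Brd1+/- vehicle. With IMN it ranged from 31.4 to 45.4 TPM around 35.5 TPM in WT and from 27.3 to 39.2 TPM around 34.2 TPM in Brd1+/-. WT vehicle had the highest median and Brd1+/- IMN the lowest, with overlapping ranges.

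Xbp1 (chromosome 11, 5520659 to 5525893, plus strand) encodes the factor that Ire1 activates by splicing. It ranged from 52.9 to 104 TPM around a median of 79.0 TPM in WT vehicle and from 49.1 to 112 TPM around 79.2 TPM in Brd1+/- vehicle. With IMN it ranged from 48.8 to 102 TPM around 76.6 TPM in WT and from 42.1 to 86.7 TPM around 64.0 TPM in Brd1+/-. Xbp1 varied widely within each group. In Brd1+/- IMN, 4 mice lay between 79.9 and 86.7 TPM and another 4 between 42.1 and 53.1 TPM, with the remaining mouse at 64.0 TPM.

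Trib3 (chromosome 2, 152337422 to 152344032, minus strand), a pseudokinase that binds and restrains Atf4 and Akt, was close to the lower limit of the measurement. Its median was 0.207 TPM in WT vehicle, 0.190 TPM in Brd1+/- vehicle, 0.177 TPM in WT IMN and 0.241 TPM in Brd1+/- IMN, and 1 library of each group was listed at 0. Its highest values were 0.440, 0.556, 1.08 and 0.533 TPM in the same order of groups. Chac1 (chromosome 2, 119351229 to 119354381, plus strand), which degrades glutathione, ranged from 3.72 to 5.94 TPM around 5.04 TPM in WT vehicle and from 3.64 to 6.11 TPM around 4.83 TPM in Brd1+/- vehicle. With IMN it ranged from 4.00 to 6.94 TPM around 5.66 TPM in WT and from 3.90 to 7.14 TPM around 4.76 TPM in Brd1+/-. For Chac1 the order of the IMN and vehicle medians thus differed between the genotypes, with ranges that overlapped throughout. Its means were higher with IMN in both, at 5.50 against 4.88 TPM in WT and 5.32 against 5.11 TPM in Brd1+/-. Sesn2 (chromosome 4, 132492032 to 132510501, minus strand), a leucine sensor that restrains mTORC1, was the steadiest of the 10 on the log2 scale, with an SD of 0.13 over 36 libraries and means between 7.57 and 7.92 TPM in the 4 groups.

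The 3 genes of amino acid synthesis had levels close to each other in the 4 groups. Asns (chromosome 6, 7675169 to 7693254, minus strand), which makes asparagine, ranged from 61.3 to 79.6 TPM around a median of 71.0 TPM in WT vehicle and from 62.1 to 90.7 TPM around 74.4 TPM in Brd1+/- vehicle. With IMN it ranged from 56.6 to 91.8 TPM around 76.1 TPM in WT and from 63.9 to 81.5 TPM around 73.9 TPM in Brd1+/-. The 4 ranges of Asns overlapped. Psat1 (chromosome 19, 15904678 to 15947337, minus strand) and Phgdh (chromosome 3, 98313170 to 98339990, minus strand) act one after the other in serine synthesis. Psat1 averaged between 54.2 and 58.6 TPM in the 4 groups and spread from 32.8 to 102 TPM over the 36 mice. Phgdh averaged between 16.5 and 17.1 TPM and spread from 9.88 to 25.3 TPM. The spread of both within groups was far wider than the distance between the group means. Herpud1 (chromosome 8, 94386438 to 94395377, plus strand), an ER membrane protein of the degradation machinery, averaged between 46.5 and 48.5 TPM in the 4 groups and spread from 35.9 to 62.5 TPM.

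In order of the mean over all libraries, Atf4 stood first, followed by Xbp1 at 74.4 ± 17.96 TPM and Asns at 73.7 ± 7.51 TPM, which did not differ beyond their spread (SD, n = 36). Psat1 at 56.8 ± 13.2 TPM and Herpud1 at 47.5 ± 6.32 TPM came next and overlapped, and Ddit3 followed at 37.0 ± 5.13 TPM. Phgdh stood at 16.8 ± 3.35 TPM, Sesn2 at 7.77 ± 0.763 TPM, Chac1 at 5.22 ± 0.933 TPM, and Trib3 last with a median of 0.198 TPM.

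**Figure D1:**
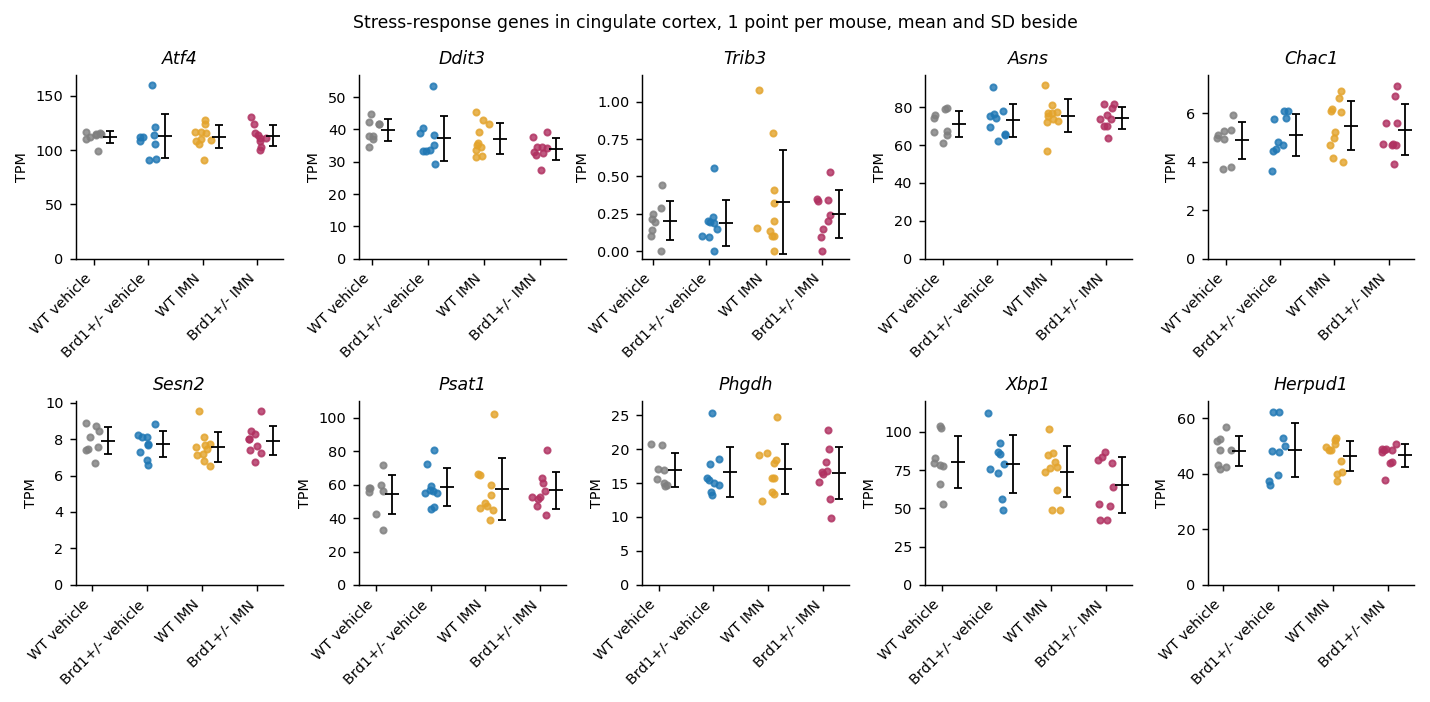
Level of each of the 10 genes in TPM on the vertical axis, by group on the horizontal axis, with 1 point for each of the 36 mice and the group mean and SD beside the points. The groups overlapped for every gene, with Atf4 near 113 TPM throughout and Trib3 at or under 1.08 TPM.

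The first question was whether IMN altered these genes. Over both genotypes, 0 of the 10 genes passed an adjusted p of 0.05 in limma between 19 IMN and 17 vehicle libraries, where 0.274% of the 25572 genes tested passed. At an unadjusted p of 0.05, 0 of the 10 passed, where 9.38% of all genes did, and 0 of the 10 passed by the permutation test. Of the 10 log2 fold changes, 5 were positive and 5 negative, with a median of -0.0024 against -0.0023 over all genes tested.

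Ddit3 was lower with IMN by a log2 fold change of -0.11 (SE 0.060, 95% interval -0.23 to 0.0086), with 14 of 19 IMN libraries below the vehicle mean. This missed the threshold in limma (p = 0.0677, adjusted p = 0.582) and in the permutation test (p = 0.0681). With 1 library left out, the limma p of Ddit3 ran from 0.030 to 0.136, and 5 of 36 fits had p under 0.05 (lowest adjusted p = 0.452). Xbp1 was lower by -0.21 (SE 0.116, 95% interval -0.44 to 0.026), with 11 of 19 IMN libraries below the vehicle mean, and missed the threshold as well (limma p = 0.0798, adjusted p = 0.606, permutation p = 0.0915). Without replicate 1 of WT vehicle, whose Xbp1 value of 52.9 TPM was the lowest of its group, the log2 fold change was -0.25 with an unadjusted p of 0.0341 and an adjusted p of 0.380. That was the smallest p of the 36 fits with 1 library left out. In these fits the limma p of Xbp1 reached up to 0.139, and 3 of 36 had p under 0.05. Under 10 other settings of the fit or the scaling, 1 fit of Ddit3 and 2 fits of Xbp1 had a limma p under 0.05 (lowest adjusted p = 0.366 and 0.411). In Brd1+/- IMN both genes had the lowest median of the 4 groups, and the difference between the genotypes is tested below.

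The differences of the other 8 genes with IMN were small or imprecise. Trib3 had the largest value, 0.14 (95% interval -0.11 to 0.38), a scale on which a gene near 0 TPM is compressed. Chac1 had 0.10 (95% interval -0.066 to 0.26) and Asns 0.055 (95% interval -0.047 to 0.16), with 15 of 19 IMN libraries above the vehicle mean of Asns. Atf4 (95% interval -0.096 to 0.11) and Sesn2 (95% interval -0.11 to 0.089) had log2 fold changes of 0.0086 and -0.013, and these intervals and that of Asns were the 3 narrowest of the 10 genes. Herpud1 had -0.045 (95% interval -0.18 to 0.086), Psat1 0.0046 (95% interval -0.21 to 0.22) and Phgdh -0.0093 (95% interval -0.20 to 0.18). Trib3 and Xbp1 had the widest intervals of the 10 genes.

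The second question was whether Brd1+/- mice differed from WT. Over both treatments, 0 of the 10 genes passed an adjusted p of 0.05 in limma between 18 Brd1+/- and 18 WT libraries, where 0.00391% of all genes passed, which was Brd1 alone. At an unadjusted p of 0.05, 0 of the 10 passed in limma or in the permutation test, against 3.62% of all genes in limma. Ddit3 was again the nearest, lower in Brd1+/- by -0.12 (SE 0.060, 95% interval -0.24 to 0.0054, limma p = 0.0606, adjusted p = 0.999, permutation p = 0.0621), and 13 of the 18 Brd1+/- values were under the mean of WT. Without replicate 7 of Brd1+/- vehicle, the library with the highest Ddit3 value (53.5 TPM), the log2 fold change was -0.15 with an unadjusted p of 0.0079 and an adjusted p of 0.998. That was the smallest p of the 36 fits with 1 library left out. In these fits the limma p of Ddit3 reached up to 0.112, and 7 of 36 had p under 0.05.

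Xbp1 had -0.12 (95% interval -0.36 to 0.11) between the genotypes, Psat1 0.062 (95% interval -0.15 to 0.27), Trib3 -0.059 (95% interval -0.30 to 0.19) and Phgdh -0.049 (95% interval -0.24 to 0.14). The values of Sesn2 (0.017), Asns (0.0073), Chac1 (0.0027), Herpud1 (-0.0013) and Atf4 (0.0012) were near 0, and the widest of their intervals was that of Chac1, from -0.16 to 0.17. The median over the 10 genes was -6.7e-05, against -0.0050 over all genes tested.

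**Figure D2:**
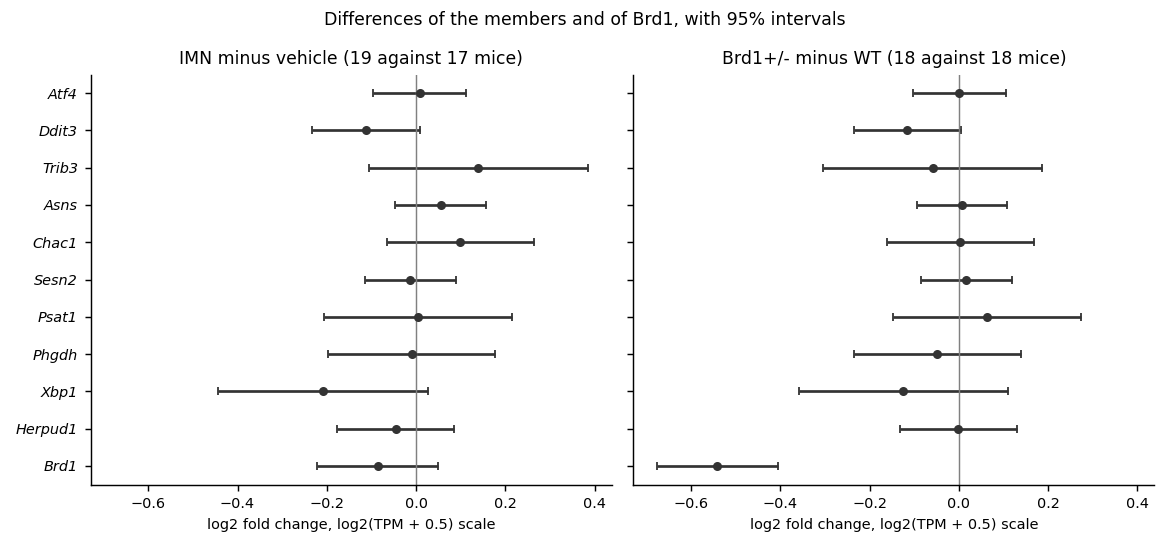
Log2 fold change of each gene with its 95% interval on the horizontal axis, for IMN minus vehicle on the left and Brd1+/- minus WT on the right, on the log2(TPM + 0.5) scale. The intervals of all 10 genes held 0 on both sides, whereas that of Brd1 lay between -0.68 and -0.41 for genotype.

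The pairwise comparisons and the interaction gave the same count. In limma, 0 of the 10 genes passed an adjusted p of 0.05 between Brd1+/- vehicle and WT vehicle (0% of all genes, and 3.75% at an unadjusted p of 0.05), between Brd1+/- IMN and WT IMN (0% and 3.23%) and between WT IMN and WT vehicle (0% and 6.6%). The same held between Brd1+/- IMN and Brd1+/- vehicle (0.00782% and 5.52%) and for the interaction of genotype and IMN (0% and 3.2%). Brd1 itself missed the adjusted threshold between the genotypes under vehicle (-0.64, limma adjusted p = 0.0620) and under IMN (-0.45, limma adjusted p = 0.882). At the adjusted threshold, the pairwise limma tests thus also missed the known difference of the deleted gene. Brd1 still stood in rank 1 of all genes in both (limma unadjusted p = 2.4e-06 and 6.9e-05, exact permutation p = 8.2e-05 and 0.00032). The paper, which tested with edgeR, reported Brd1 as the only gene past FDR correction in this vehicle comparison. At an unadjusted p of 0.05, 0 of the 10 genes passed in each of these 5 comparisons. For these 10 genes, the lowest p of the 60 permutation tests over all comparisons except the interaction was 0.0621. The comparisons shared groups of mice and were therefore not independent of each other.

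Ddit3, Xbp1 and Chac1 are given in each of these comparisons. They were chosen after the values were seen. Ddit3 and Xbp1 had the smallest p with IMN of the 10, and Chac1 the next. Ddit3 had a log2 fold change of -0.10 (95% interval -0.26 to 0.059) with IMN in WT and -0.12 (95% interval -0.32 to 0.070) with IMN in Brd1+/-. Between the genotypes it had -0.10 (95% interval -0.30 to 0.094) under vehicle and -0.13 (95% interval -0.29 to 0.034) under IMN. The interaction for Ddit3 was -0.023 (95% interval -0.27 to 0.22, limma adjusted p = 1.00), so a difference in its response between the genotypes was not detected, with an interval that holds values larger than either response itself.

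For Xbp1 the log2 fold change with IMN was -0.12 (95% interval -0.43 to 0.18) in WT and -0.29 (95% interval -0.65 to 0.065) in Brd1+/-. Its interaction was -0.17 (95% interval -0.64 to 0.31, limma adjusted p = 1.00), which did not pass. Between the genotypes Xbp1 had -0.035 (95% interval -0.36 to 0.29) under vehicle and -0.20 (95% interval -0.54 to 0.14) under IMN. The exact permutation test gave p = 0.131 for Xbp1 with IMN in Brd1+/- and p = 0.440 in WT. Chac1 had 0.15 (95% interval -0.095 to 0.40) with IMN in WT, 0.049 (95% interval -0.20 to 0.30) with IMN in Brd1+/-, 0.056 (95% interval -0.19 to 0.30) for genotype under vehicle, -0.045 (95% interval -0.29 to 0.20) for genotype under IMN and -0.10 (95% interval -0.43 to 0.23) for the interaction. Over all 10 genes, the log2 fold changes lay between -0.10 and 0.12 for genotype under vehicle, between -0.20 and 0.062 for genotype under IMN, between -0.12 and 0.16 for IMN in WT, between -0.29 and 0.11 for IMN in Brd1+/-, and between -0.17 and 0.095 for the interaction. The value of 0.12 for genotype under vehicle belonged to Psat1, which had -0.018 there with the marker scores as covariates and between 0.025 and 0.18 with 1 library left out. Phgdh, at -0.041 in that comparison, had -0.21 with the same covariates (limma p = 0.0253, adjusted p = 0.898).

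The wider pathway was described by 4 lists, each with the count of its genes past the test beside the share of all genes. The first held 18 genes around eIF2, that is the eIF2 kinases, the phosphatase subunits, the subunits of eIF2 and of its exchange factor eIF2B, and the regulators Gcn1l1, Impact, Nck1 and Dnajc3. Dnajc3 is also counted in the fourth list. With IMN over both genotypes 0 of 18 passed an adjusted p of 0.05 (0.274% of all genes) and 0 of 18 an unadjusted one (9.38%), with a median log2 fold change of 0.012. The smallest p belonged to Ppp1r15b, a subunit of the eIF2 phosphatase (-0.10, SE 0.052, limma adjusted p = 0.574), and to the exchange factor subunit Eif2b5 (-0.060, adjusted p = 0.704). Between the genotypes, 0 of 18 passed an adjusted p (0.00391% of all genes), and 1 was higher and 0 lower at an unadjusted p of 0.05, against 1.69% of all genes higher and 1.94% lower. It was Eif2ak4, the kinase Gcn2 that senses uncharged tRNA (0.31, SE 0.108, limma adjusted p = 0.999), followed by the phosphatase subunit Ppp1r15a (0.083, adjusted p = 0.999).

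The second list held 29 other genes of the Atf4 programme, of which 27 could be tested. With IMN, 1 of 27 passed an adjusted p of 0.05, against 0.274% of all genes. It was Ddit4, an inhibitor of mTORC1 that glucocorticoids also raise, which rose by a log2 fold change of 0.49 (SE 0.078, 95% interval 0.34 to 0.65, limma adjusted p = 0.00121), in rank 4 of all genes by p. It ranged from 16.1 to 28.4 TPM around a median of 20.5 TPM in WT vehicle and from 14.7 to 30.6 TPM around 19.2 TPM in Brd1+/- vehicle. In the IMN groups Ddit4 ranged from 25.1 to 38.8 TPM around 28.8 TPM in WT and from 20.6 to 34.97 TPM around 29.0 TPM in Brd1+/-. Both IMN medians lay above both vehicle medians, with ranges that overlapped in each genotype. Ddit4 did not pass in either genotype alone, with 0.47 in WT (limma adjusted p = 0.242) and 0.52 in Brd1+/- (adjusted p = 0.488). The interaction for Ddit4 was 0.047 (95% interval -0.27 to 0.37). Jdp2 (-0.25, limma adjusted p = 0.364) and the leucine transporter Slc7a5 (-0.11, adjusted p = 0.436) were the 2 of 27 lower at an unadjusted p of 0.05, against 5.48% of all genes, and the median of the 27 was 0.020. Between the genotypes 0 of 27 passed an adjusted p (0.00391% of all genes) or an unadjusted one (3.62%), with the smallest p for Vldlr (0.26, limma adjusted p = 0.999) and the amino acid transporter Slc7a3 (-0.25, adjusted p = 0.999).

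The third list held 12 aminoacyl-tRNA synthetases, which Atf4 also raises. With IMN 0 of 12 passed an adjusted p of 0.05 (0.274% of all genes), while 2 were higher and 1 lower at an unadjusted p of 0.05, where 3.9% of all genes were higher and 5.48% lower. They were Lars (0.12, SE 0.042, limma adjusted p = 0.289), Yars (0.092, adjusted p = 0.489) and Cars (-0.17, adjusted p = 0.383). Yars fell outside the rule for naming genes and was named after its value was seen. Between the genotypes 0 of 12 passed at either threshold (0.00391% of all genes adjusted and 3.62% unadjusted), with the smallest p for Wars (-0.19, limma adjusted p = 0.999) and Lars (0.076, adjusted p = 0.999).

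The fourth list held 37 unfolded protein sensors, ER chaperones and genes of ER-associated degradation, the targets of Atf6 and Xbp1 among them. With IMN over both genotypes 0 of 37 passed an adjusted p of 0.05, against 0.274% of all genes. At an unadjusted p of 0.05, 10 of 37 were lower, against 5.48% of all genes, and 1 of 37 was higher, against 3.9% of all genes. Of the log2 fold changes, 29 were negative and 8 positive, with a median of -0.053 against -0.0023 over all genes, and with quantile normalization 25 were negative. Markers of other cells also had one-sided values in this comparison. All 10 oligodendrocyte markers were positive (median 0.41, with 0.61 in WT alone and 0.16 in Brd1+/- alone) and 9 of 10 striatal markers negative (median -0.16). Of these 20 markers, 0 passed an unadjusted p of 0.05 in limma, against 9.38% of all genes. The striatal direction differed between the genotypes, with 8 of 10 higher with IMN in WT (median 0.12) and 10 of 10 lower in Brd1+/- (median -0.45). The Brd1+/- vehicle group held replicate 6, with 1574 TPM over the striatal markers against at most 423 TPM elsewhere. With the astrocyte, oligodendrocyte and striatal marker scores as covariates, 9 of the 37 ER genes were lower at an unadjusted p of 0.05. The share of all genes in that fit is not given here, so this count stands without its comparison. The endothelial markers were not among the covariates, and 5 of 6 were higher with IMN. Of these, 1 was higher at an unadjusted p of 0.05 in limma, against 3.9% of all genes. The part of cell composition in the ER differences was not tested. In WT, 5 of 37 were lower at an unadjusted p of 0.05 (4.57% of all genes) and 0 higher (2.03%), and in Brd1+/- 9 of 37 were lower (2.4% of all genes) and 1 higher (3.12%). The 10 genes lower over both genotypes were Sdf2l1, Creld2, Pdia4, Syvn1, Manf, Os9, Hspa5, Dnajb11, Calr and Pdia6, all but the first pair named after their values were seen, as was the higher one, the protease gene Mbtps1 (0.15, limma adjusted p = 0.336).

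Sdf2l1, a partner of ER chaperones, had the largest difference in this list, -0.54 (SE 0.140, 95% interval -0.82 to -0.25, limma adjusted p = 0.0901). It ranged from 9.04 to 19.2 TPM around a median of 12.2 TPM in WT vehicle and from 6.82 to 21.8 TPM around 11.4 TPM in Brd1+/- vehicle. In the IMN groups Sdf2l1 ranged from 4.97 to 14.0 TPM around 10.4 TPM in WT and from 3.82 to 10.4 TPM around 7.38 TPM in Brd1+/-. Brd1+/- IMN had the lowest median, and its range overlapped those of the other 3 groups. Creld2, whose promoter stretch is shown above, had -0.33 (SE 0.093, 95% interval -0.52 to -0.15, limma adjusted p = 0.119), and Hspa5, the chaperone BiP, had -0.26 (SE 0.091, 95% interval -0.45 to -0.077, adjusted p = 0.278). Pdia4, a disulfide isomerase, had -0.30 (adjusted p = 0.145) and Manf, a secreted factor held in the ER, -0.28 (adjusted p = 0.161). The interactions of Sdf2l1 (-0.30, 95% interval -0.87 to 0.26) and Creld2 (-0.14, 95% interval -0.51 to 0.24) did not pass, so a difference between the genotypes was not shown.

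Between the genotypes, 0 of these 37 genes passed an adjusted p of 0.05 over both treatments, against 0.00391% of all genes. At an unadjusted p of 0.05, 1 of 37 was lower, against 1.94% of all genes, and 0 of 37 higher, against 1.69%. It was Sdf2l1 (-0.31, SE 0.140, limma adjusted p = 0.999), followed by Creld2 (-0.17, adjusted p = 0.999). Of the 37 log2 fold changes 31 were negative, with a median of -0.032 against -0.0050 over all genes.

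**Figure D3:**
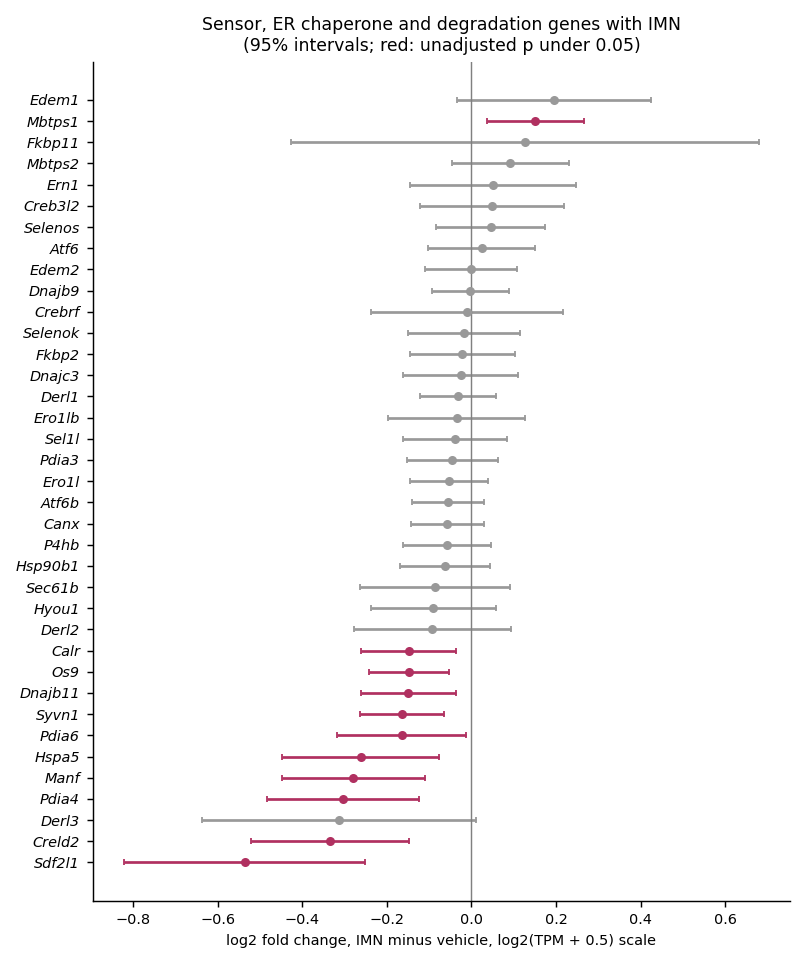
Log2 fold change with its 95% interval, IMN minus vehicle over both genotypes, for the 37 sensor, chaperone and degradation genes in order of size, with unadjusted p under 0.05 in red. The 10 red genes to the left run from Sdf2l1 at -0.54 to Calr at -0.15, and the 1 red gene to the right is Mbtps1 at 0.15.

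Genes of neuronal activity moved with IMN in the same libraries. Of 13 immediate-early genes, 12 had a negative log2 fold change with IMN and 10 were lower at an unadjusted p of 0.05, against 5.48% of all genes, with a median of -0.42 against -0.0023. Jun, named after its value was seen, was the 1 gene higher at that threshold (0.28), against 3.9% of all genes. Arc (-0.67, limma adjusted p = 0.0108), Egr1 (-0.66, adjusted p = 0.0094) and Npas4 (-0.94, adjusted p = 0.0032) passed the adjusted threshold, as 0.274% of all genes did. Summed over the list, the ranges were 779 to 1614 TPM in WT vehicle, 1034 to 1663 TPM in Brd1+/- vehicle, 706 to 1288 TPM in WT IMN and 557 to 1244 TPM in Brd1+/- IMN. Within groups, their mean log2 level had r = -0.18 with Ddit3 and 0.40 with Xbp1, as described below. Their part in the differences of Ddit4 and the ER chaperones with IMN was not tested.

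The last question was whether the 10 genes varied together from mouse to mouse within groups. Deviations from the group means on the log2 scale were correlated over the 36 libraries for all 45 pairs, with p from 100000 permutations and Benjamini-Hochberg adjustment over the 45. The median Pearson's r was 0.16, and 4 pairs passed an adjusted p of 0.05, all of them positive. With median-ratio scaling 6 pairs passed, of which Asns and Phgdh were negative (r = -0.46, permutation, adjusted p = 0.0342, against r = -0.23 and an adjusted p of 0.367 without that scaling). Without replicate 6 of Brd1+/- vehicle and replicate 1 of WT vehicle 5 passed, and Sesn2 and Herpud1 were the added pair (r = 0.54), which also passed with median-ratio scaling (r = 0.49).

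Atf4 and Herpud1 had r = 0.65 and rho = 0.60 (permutation, adjusted p = 0.00135 and 0.00562), with r = 0.54 without the 2 libraries farthest from the median of Atf4. Atf4 and Ddit3 had r = 0.63 and rho = 0.44 (permutation, adjusted p = 0.0021 and 0.0910), with r = 0.40 without the 2 farthest libraries, so only r passed. Ddit3 and Herpud1 had r = 0.49 and rho = 0.47 (permutation, adjusted p = 0.0225 and 0.0674), with r = 0.35 without the 2 farthest, and again only r passed. These 3 genes made up a group in which each pair was positive. Asns and Chac1 had r = 0.58 and rho = 0.59 (permutation, adjusted p = 0.0021 and 0.00562), with r = 0.62 without the 2 farthest libraries. Atf4 with Asns (r = 0.25), Chac1 (0.28), Psat1 (0.25), Trib3 (0.25) and Phgdh (0.0049) had lower values that did not pass.

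Among 17695 genes averaging 1 TPM or more, 340 (1.92%) correlated with Atf4 as highly as Herpud1 did, and 79 (0.446%) correlated with Herpud1 as highly as Atf4 did. For Atf4 and Ddit3 these shares were 2.68% from the side of Atf4 and 0.571% from the side of Ddit3. For Asns and Chac1 they were 3.26% from the side of Asns and 0.141% from the side of Chac1. Each pair thus stood higher in the order of one gene than in that of the other. The genes most like Atf4 were Ndufs6 (r = 0.87), Atpif1 (0.85) and Ndufa6 (0.84), and those most like Ddit3 were Cops9 (0.81), Ndufa7 (0.79) and Fkbp2 (0.75), over 36 libraries that share their normalization. Asns was most like Klc1 (r = 0.83), the seryl-tRNA synthetase gene Sars (0.82) and Ccdc177 (0.81), and Xbp1 most like Plekhg4 (0.77), Creld2 (0.73) and Rasd1 (0.71). Herpud1 was most like Ckb (r = 0.78), Rpl7l1 (0.76) and Gm10273 (0.75), Chac1 most like Trappc1 (0.67), Txnl4b (0.66) and Mrpl16 (0.64), and Sesn2 most like Map3k10 (0.66), Reep2 (0.63) and Grin1 (0.62). Psat1 was most like Golga7 (r = 0.71), Tmco1 (0.69) and Nsmce4a (0.68), and Trib3 most like 2900093K20Rik (0.60), Gata2 (0.59) and Smco4 (0.58). The genes most like Phgdh were the predicted genes Gm7901 (r = 0.87), Gm9347 (0.83) and Gm4815 (0.80). Predicted genes may share reads with a near-identical copy, and whether these share reads with Phgdh was not tested.

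Several of the genes also varied with the markers of cell types. The mean log2 level of 5 marker lists was correlated in the same way with each of the 10 genes, a set of 50 relations chosen after the data were seen, of which 15 passed an adjusted p of 0.05 over the 50 on r. Asns was negatively related to the astrocyte markers (r = -0.64, rho = -0.64, permutation, adjusted p = 0.0020 for both) and to the endothelial markers (r = -0.60), and positively to the neuron markers (r = 0.53). Chac1 shared the negative relations to the astrocyte (r = -0.58) and endothelial markers (r = -0.57), which passed on r for both Asns and Chac1. With the neuron markers Chac1 was positive as well but passed on rho alone (r = 0.37, rho = 0.43, permutation, adjusted p = 0.0744 and 0.0343). Phgdh was positively related to the astrocyte markers (r = 0.57, rho = 0.59, permutation, adjusted p = 0.0032 and 0.0022), and r was 0.48 without the 2 farthest libraries. Atf4 (r = 0.47), Herpud1 (r = 0.48) and Psat1 (r = 0.50) were positively related to the oligodendrocyte markers, and without the 2 farthest libraries r was 0.33 for Psat1.

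Xbp1 was positively related to the astrocyte markers (r = 0.44), negatively to the neuron markers (r = -0.45) and positively to the immediate-early genes (r = 0.40). None of these 3 passed on rho (permutation, adjusted p = 0.0751, 0.0708 and 0.251). Without the 2 farthest libraries r was 0.28 for the astrocyte markers, -0.45 for the neuron markers and 0.19 for the immediate-early genes, so the last rested on those libraries. The remaining relations that passed were Ddit3 (r = -0.42) and Phgdh (r = 0.41) with the endothelial markers and Psat1 with the immediate-early genes (r = -0.41). Sesn2 and Trib3 had none that passed. With the astrocyte, oligodendrocyte and striatal marker scores as covariates, the log2 fold change with IMN was -0.14 for Ddit3 (limma adjusted p = 0.366) and -0.16 for Xbp1 (adjusted p = 0.686).

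**Figure D4:**
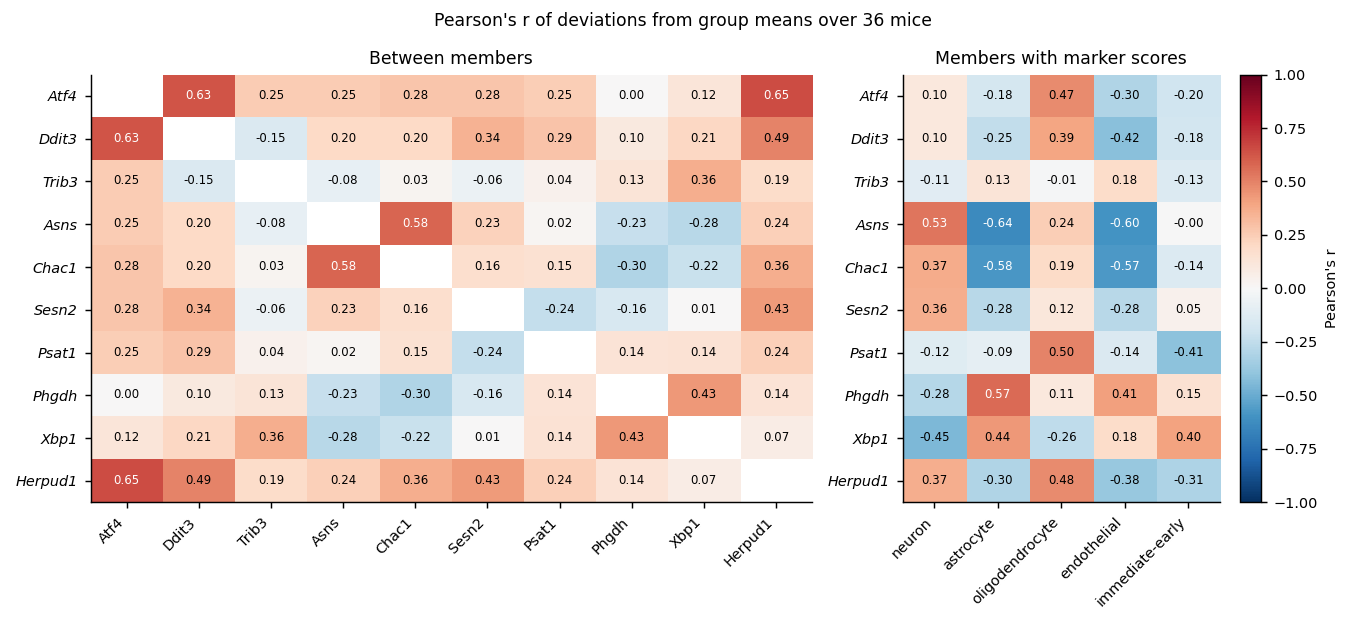
Pearson's r of deviations from the group means over 36 mice, between the 10 genes on the left and with the 5 marker scores on the right, where red stands for positive and blue for negative values. Atf4, Ddit3 and Herpud1 form 1 positive set (r from 0.49 to 0.65), and Asns and Chac1 have the most negative values, with the astrocyte (-0.64 and -0.58) and endothelial scores (-0.60 and -0.57).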

How the data were processed

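Right-sided punches of the anterior cingulate cortex were sequenced in single-end reads, and per the labels and the submitters' processing notes the reads were aligned with HISAT2 2.1.0 to GRCm38 and assembled with StringTie 1.3.4. The authors deposited TPM per Ensembl gene for 36 libraries. TPM keeps no read depth, so a count test was not used and no counting interval is given, and a rise of abundant genes lowers all others. Mitochondrially encoded genes took 21.7 to 30.5% of TPM, and rescaling without them was an alternative.

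Values were tested as log2(TPM + 0.5), a scale that understates changes of low genes such as Trib3. Genes were kept where 8 or more libraries reached 0.1 TPM (25572, all 10 genes of the response among them). Two-sided tests used limma 3.58.1 in R 4.3.3 with an intensity trend and Benjamini-Hochberg adjustment over all genes tested, on the groups compared (pairwise) or on all 36 libraries (both genotypes or treatments pooled with the other factor as covariate, and the interaction). Single values were also tested by permutation over samples, exact for pairs of groups and with 100000 draws within strata for pooled comparisons (scipy 1.17.1, numpy 2.4.6, pandas 2.3.3, Python 3.11.15). The scripts were tested on simulated data. Each library is 1 mouse, and dates or batches were not given in the sources used here.

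The 10 genes, the wider lists, the markers and the motifs were chosen with earlier results of these data known. Genes named from the wider lists were those with an adjusted p under 0.05 in any comparison and otherwise the 2 of each list with the smallest p for IMN and for genotype, and the 3 genes most like each of the 10. Alternatives covered the pseudocount, the filter, 3 other scalings, the libraries in the fit, array weights, marker scores as covariates, the replicate number as a block and each library left out. Promoter windows are RefSeq's. Protein sequences were not used here.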

Additional observations from a re-analysis of the deposited data

Results flagged for a closer look

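In the 40 sets of 1 gene in 1 group, 4 held a library whose distance from its nearest neighbour was a large part of the group's range by Dixon's criterion, which chance meets in about 1 set in 20. Atf4 was lowest in replicate 8 of WT vehicle, at 99.4 TPM against 109.9 TPM in the next library. Trib3 was highest in replicate 6 of Brd1+/- vehicle, at 0.556 TPM against 0.226 TPM in the next, and this is the library with choroid plexus and striatal markers. Asns was lowest in replicate 1 of WT IMN, at 56.6 TPM against 72.3 TPM. Herpud1 was lowest in replicate 5 of Brd1+/- IMN, at 37.8 TPM against 43.8 TPM. Their causes were not tested.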

How the results depend on the processing

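Under 11 other settings and with each of 36 libraries left out, 0 of 2533 tests of the 10 genes had an adjusted p under 0.05 (lowest 0.366) and 26 had an unadjusted p under 0.05. In the reported fits, which are not among the 2533, 0 of 70 tests had an unadjusted p under 0.05. The log2 fold changes that follow changed sign, and the cause was not tested. With IMN over both genotypes, marker scores as covariates gave -0.031 for Atf4 and -0.039 for Psat1, and TPM without mitochondrially encoded genes gave 0.0048 for Sesn2 and 0.0090 for Phgdh. With IMN in WT, the marker scores turned Psat1 from 0.062 to -0.12. Between the genotypes, Atf4 had -0.024 with array weights, Chac1 -0.0028 with quantile normalization, and Herpud1 0.0069 with median-ratio scaling, 0.012 with quantile normalization and 0.0080 without mitochondrially encoded genes. The labels do not say whether a replicate number marks a shared litter, day or batch. Same-number correlations of deviations ran from -0.26 to 0.26 (median -0.011, over 51 pairs), which cannot show that nothing was shared. The paper states that WT and Brd1+/- mice were matched by litter, and the litter of each mouse was not given in the sources used here. With the replicate block, Atf4 had -0.0017 and Herpud1 0.0051 between the genotypes, and 37 genes passed with IMN against 70 without the block. Array weights gave 191 genes with IMN. With 1 library left out, log2 fold changes with IMN ran from -0.0092 to 0.040 for Atf4, from -0.044 to 0.036 for Psat1 and from -0.039 to 0.032 for Phgdh. Between the genotypes they ran from -0.028 to 0.018 for Atf4, from -0.096 to 0.00061 for Trib3, from -0.015 to 0.024 for Asns, from -0.022 to 0.029 for Chac1, from -0.0016 to 0.034 for Sesn2 and from -0.023 to 0.022 for Herpud1. They ran from -0.12 to 0.045 for Xbp1 between genotypes under vehicle, from -0.097 to 0.0029 for Chac1 between genotypes under IMN, from -0.0035 to 0.097 for Chac1 with IMN in Brd1+/-, and from -0.064 to 0.043 for the interaction of Ddit3. The count of ER genes lower with IMN at an unadjusted p of 0.05 ran between 9 and 11. The share of all genes lower in each of those fits is not given here, so these counts stand without their comparison. They were chosen after the data were seen, as were the alternatives for Ddit4, Sdf2l1 and Creld2. Over both genotypes Ddit4 passed an adjusted p of 0.05 in all of them with 0.47 to 0.53, and Sdf2l1 and Creld2 passed in none. Trib3 was not tested under the filter of a mean of at least 1 TPM. TPM keeps no read depth per library, which limits what can be said of Trib3.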
